A study of Mus musculus with 4 samples.

Results

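The complement cascade genes described here are C1qa, C1qb, C1qc, C3, C4b, C2, Serping1, C3ar1 and C5ar1, taken by symbol from the deposited gene table, which makes 9 of its 32285 genes. All 9 had a single entry and unique molecular identifiers (UMIs, each standing for 1 captured molecule) in every library. They were chosen with their levels in these data known, so the levels and ratios between libraries are descriptions and carry no test.

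The model is a transgenic soluble VEGFR1 (a decoy receptor that binds vascular endothelial growth factor, VEGF), expressed in the brain under tetracycline control through camk2a-tTa. The mutant mouse is labelled as having VEGF blocked at E13.5. The other mouse is labelled control with no treatment, and the labels, which give the transgene protocol for every sample, do not say which alleles it carried. Both were taken at 5 months, coronal slices 10 µm thick were cut from frozen olfactory bulb, and the series text gives a degeneration of 28% of the bulb for the mouse with the blockade. The mutant mouse gave 2 sections on each of 2 Visium capture areas and the control mouse 2 sections on 1 area and 1 section on another. Each condition is therefore 1 animal, and areas of the same animal are technical repeats.

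The complement cascade tags debris, microbes and, in the developing and diseased brain, synapses for removal. C1q binds the target and starts the classical pathway, in which C4 and C2 are cleaved and together cleave C3, whose fragments coat the target and attract phagocytes through receptors. In the healthy brain C1q is made mainly by microglia, whereas C3 is known as a transcript of reactive astrocytes and of activated phagocytes, and C4b as one of reactive astrocytes and of oligodendrocytes in disease.

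The deposited matrix numbers its libraries 1 to 4, and these numbers match no sample label. No library was given a condition, and mutant and control were not compared. After spots under 500 UMIs were set aside, 4616 spots remained, 1662, 715, 1296 and 943 in libraries 1 to 4, with 13304973, 5223890, 12533691 and 9533952 UMIs. Each barcoded spot captures RNA from whatever cells lie over it, often several of different types. Of 2796 distinct barcodes, 1460 occurred in more than 1 library. Levels are UMIs per 1000000 UMIs of the library (CPM), and for these 3′ tags they do not depend on transcript length. Intervals in parentheses are exact 95% intervals that cover counting error only, and in spots of mixed tissue fewer cells of a type and less RNA per cell cannot be told apart. Regions whose leading genes include Omp, Tbx21 and Th, which mark olfactory nerve, mitral and tufted cells and periglomerular neurons, were present, and a region of 373 spots of libraries 3 and 4 was led by genes that include the cortical Neurod6.

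Promoter sequence is shown for C1qb and C1qc, microglial genes whose levels differed alike between libraries, and for C3, which differed far more. The 250 bases before the start are from the RefSeq promoter table on GRCm38.p6, which held 5 of the 9 members. All 3 genes are on the minus strand, at chr4:136886201-136886450 (C1qb), chr4:136892915-136893164 (C1qc) and chr17:57228137-57228386 (C3). Capitals mark the PU.1 core GAGGAA, PU.1 being the factor that specifies myeloid cells, in C1qb and, read as TTCCTC on the other strand, in C1qc. In C3 they mark the C/EBP letters TTGCNNAA, bound by factors of acute-phase genes.
C1qb: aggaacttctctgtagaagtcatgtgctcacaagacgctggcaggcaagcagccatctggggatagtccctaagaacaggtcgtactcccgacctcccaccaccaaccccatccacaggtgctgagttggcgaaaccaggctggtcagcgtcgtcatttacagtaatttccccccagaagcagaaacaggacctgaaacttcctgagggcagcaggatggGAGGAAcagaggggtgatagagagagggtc
C1qc: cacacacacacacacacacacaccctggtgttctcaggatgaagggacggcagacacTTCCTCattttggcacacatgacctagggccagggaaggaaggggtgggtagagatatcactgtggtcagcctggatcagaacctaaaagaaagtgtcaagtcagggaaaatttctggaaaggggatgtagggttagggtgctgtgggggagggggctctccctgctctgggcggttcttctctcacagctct
C3: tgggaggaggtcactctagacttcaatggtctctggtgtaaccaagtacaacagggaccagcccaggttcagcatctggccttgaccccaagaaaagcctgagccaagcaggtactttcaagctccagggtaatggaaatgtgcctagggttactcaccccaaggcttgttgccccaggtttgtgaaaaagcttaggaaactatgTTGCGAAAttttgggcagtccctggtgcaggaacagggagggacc
The match lay 30 to 25 bases before the start in C1qb, 193 to 188 in C1qc and 45 to 38 in C3. Both strands were searched. Of 32851 promoter windows of the same length, 23.3% held GAGGAA and 9.56% held TTGCNNAA, so a match is a description of these letters, not a site or a cause. A STAT motif, TTCNNNGAA, occurred in none of the 5 members' windows, against 7.02% of all windows. The windows of C3ar1 and C5ar1, not printed here, held neither GAGGAA nor TTGCNNAA. The last motif searched, TATAAA, occurred only in the C3ar1 window, against 12.4% of all windows.

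The 3 genes of C1q, the recognition molecule, were measured in all 4 libraries and kept close to one another. C1qa (ENSMUSG00000036887) stood at 80.05, 71.2, 187 and 162 CPM in libraries 1 to 4. C1qb (ENSMUSG00000036905) stood at 70.8, 65.3, 216 and 192 CPM, and C1qc (ENSMUSG00000036896) at 61.7, 53.98, 159 and 142 CPM. Library 3 was highest and library 2 lowest for each of them, and the intervals of libraries 3 and 4 lay above those of libraries 1 and 2. Library 3 exceeded library 2 by a factor of 2.63 (2.36 to 2.94) for C1qa, 3.30 (2.95 to 3.71) for C1qb and 2.94 (2.59 to 3.34) for C1qc.

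C3, the central component that every pathway cleaves, ranged far more widely. C3 (ENSMUSG00000024164) gave 3 UMIs in library 1, 3 in library 2, 1528 in library 3 and 839 in library 4, or 0.23, 0.57, 122 and 88.0 CPM. It sat at the floor of 3 UMIs in libraries 1 and 2 and lay below each C1q gene in all 4. The ratio of library 3 to library 1 was 541 (185 to 2625) and rests on the 3 UMIs of library 1. With each spot thinned to 2000 UMIs, so that depth is alike, C3 was seen in 0 of 1429 spots of library 1, which under the limit of 3 counts allows a share of up to 0.210%, and in 1 of 626 spots of library 2. The thinned share was 14.4% (12.5 to 16.5%) in library 3 and 11.9% (9.90 to 14.2%) in library 4, and the share without thinning 32.7% and 27.4%.

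C4b, the complement C4 gene whose product forms the classical C3 convertase with C2, had the next widest range among members with over 500 UMIs. In libraries 1 to 4 the values for C4b (ENSMUSG00000073418) were 17.1, 19.3, 222 and 183 CPM, with library 3 above library 1 by a factor of 12.97 (11.3 to 14.9). C4b was level with C1qb within counting error in library 3, whereas in libraries 1 and 2 it lay below each C1q gene. C4b and its near-identical copy C4a share 98.0% of the last 500 bases of their transcripts, so reads may have been split between them, but C4a itself was counted at only 1.58, 1.53, 2.95 and 1.68 CPM. C2 (ENSMUSG00000024371), the protease of that convertase, ranged least, at 8.57, 13.6, 18.9 and 14.9 CPM, a factor of 2.21 (1.76 to 2.78). C2 shares sequence with Gm20547 on its own strand and Zbtb12 on the other in the GENCODE M21 annotation, and the sources used here do not give whether counting used strand.

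Serping1, the C1 inhibitor that stops the classical pathway at its first step, was also uneven. Serping1 (ENSMUSG00000023224) stood at 18.6, 24.3, 108 and 89.9 CPM in libraries 1 to 4, and library 3 exceeded library 1 by a factor of 5.80 (5.06 to 6.67). Both receptors for the released fragments were sparse. C3ar1 (ENSMUSG00000040552), the receptor for C3a, had 16, 11, 154 and 64 UMIs, or 1.203, 2.11, 12.3 and 6.71 CPM. C5ar1 (ENSMUSG00000049130), the receptor for C5a, had 9, 7, 55 and 40 UMIs, or 0.68, 1.34, 4.39 and 4.20 CPM. The ratios were 10.2 (6.09 to 18.3) for C3ar1 and 6.49 (3.18 to 14.9) for C5ar1, each on few UMIs.

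**Figure D1:**
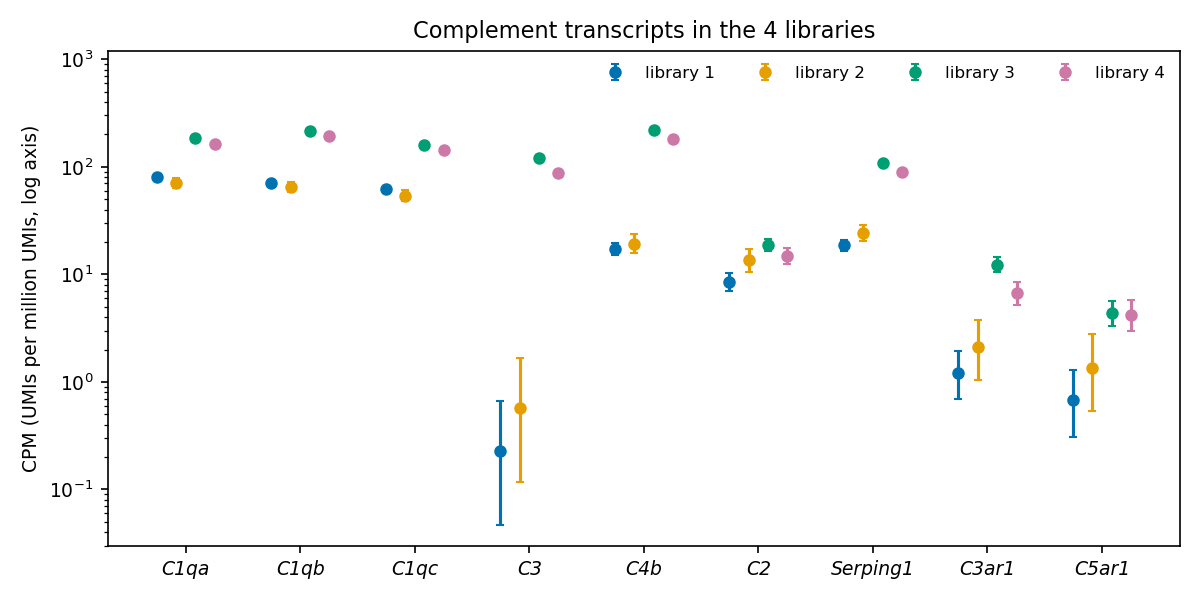
Level of each complement gene (vertical axis, CPM, logarithmic) in libraries 1 to 4 (colours), with exact 95% counting intervals. The C1q genes lie between 53.98 and 216 CPM, while C3 runs between 0.23 and 122 CPM.

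All 9 members had their highest CPM in library 3, though for C2 and C5ar1 its interval overlapped that of library 4. No share of all genes highest in library 3 was set beside this count, so whether it is unusual was not tested. Counting only genes with 500 or more UMIs over all libraries and 3 or more in every one, 7 of the 7 members that qualified differed by over 2-fold between their highest and lowest library, against 7.85% of the 9852 genes tested. The median ratio was 3.30 among these members and 1.24 among all genes tested. C3ar1 and C5ar1 did not reach 500 UMIs and are outside this count, and C3 is in it with exactly the minimum in libraries 1 and 2. Lists of cell type markers also differed between libraries. The summed level of 9 reactive glia genes was 218, 208, 2133 and 1754 CPM in libraries 1 to 4, with 9 of 9 genes over 2-fold. Of the 10 lesion phagocyte genes, 8 of the 9 with at least 100 UMIs were over 2-fold and the sum was 816, 765, 2217 and 1851 CPM, with Mmp12, Itgax and Cst7 at 0 in at least 1 library. Leptomeningeal genes summed to 3292, 4593, 8556 and 6304 CPM, and red blood cell genes to 865, 647, 1477 and 1306 CPM. The neutrophil list ran between 4.02 and 106 CPM, with 6 of its 10 genes, Ly6g among them, at 0 in at least 1 library. The part of these cells in the complement values was not tested.

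Against homeostatic microglial genes, the C1q genes were not level. The purinergic receptor P2ry12, a marker of resting microglia, stood at 21.8, 22.0, 19.1 and 19.8 CPM in libraries 1 to 4, and the fractalkine receptor Cx3cr1 at 17.8, 14.5, 18.0 and 21.3 CPM. The 10-gene homeostatic list summed to 338, 346, 378 and 366 CPM, with 2 of 10 genes over 2-fold. Per UMI of that list the libraries held 0.629 (0.600 to 0.659), 0.551 (0.509 to 0.595), 1.49 (1.43 to 1.54) and 1.35 (1.296 to 1.41) C1q UMIs. The list holds Sall1, which ran the other way at 111, 120, 58.4 and 54.3 CPM, and without it the values were 0.938, 0.845, 1.76 and 1.59.

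The make-up of C1q itself differed slightly. C1qa contributed 37.7% (35.9 to 39.5%), 37.4% (34.4 to 40.5%), 33.4% (32.3 to 34.5%) and 32.6% (31.3 to 34.0%) of C1q UMIs in libraries 1 to 4. C1qb contributed 33.3%, 34.3%, 38.4% and 38.7%, and C1qc between 28.2% and 29.0% in every library. C1qa led in library 1 and C1qb in libraries 3 and 4, while in library 2 the intervals of the leading pair overlapped. The share of C1qb was 39.2% in the C1q-rich Ces1a region described next and 36.7% (32.9 to 40.5%) in the C1q-poor Trbc2 region of library 3, a difference within counting error.

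The other members did not keep a fixed ratio to C1q. Per C1q UMI there were 0.00106, 0.00302, 0.217 and 0.178 UMIs of C3 in libraries 1 to 4, and 0.0806, 0.102, 0.396 and 0.369 of C4b. Serping1 gave 0.0873, 0.128, 0.192 and 0.181 UMIs per C1q UMI. C2 gave 0.0403, 0.0714, 0.0337 and 0.03005, so that C2 relative to C1q was highest in library 2, whose interval of 0.0553 to 0.0908 lay above the others.

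**Figure D2:**
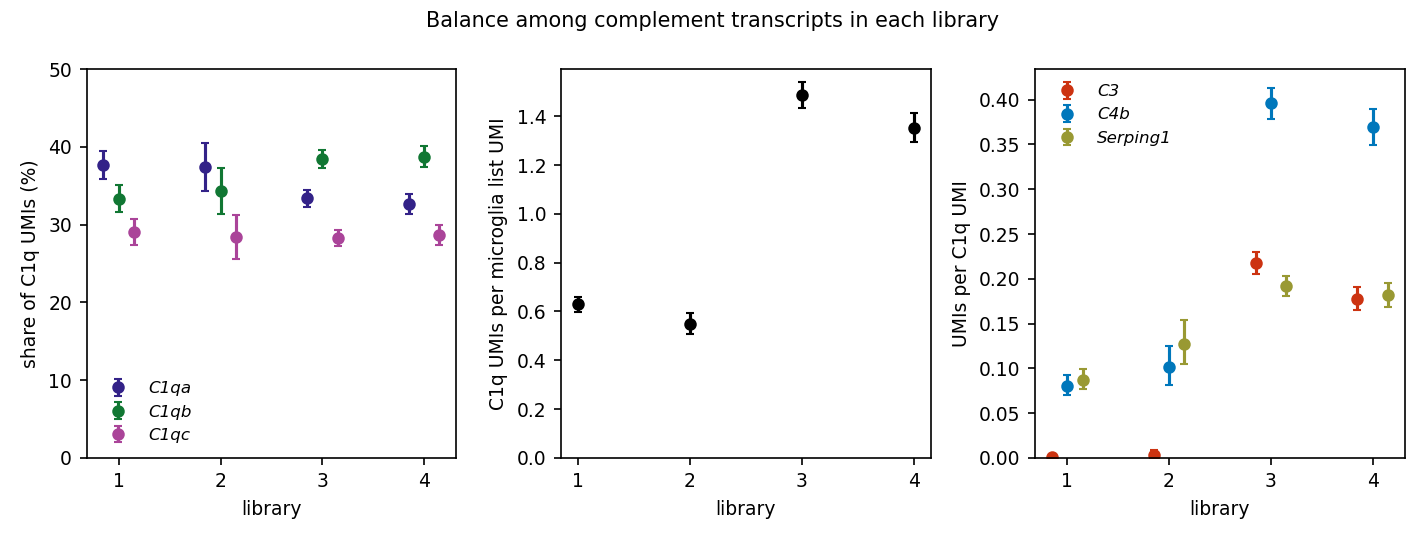
Left, share of C1q UMIs from each C1q gene (%); middle, C1q UMIs per UMI of the homeostatic microglia list; right, UMIs of C3, C4b and Serping1 per C1q UMI, in libraries 1 to 4, with exact 95% counting intervals. C1qc stays between 28.2% and 29.0%, while C4b per C1q UMI runs between 0.0806 and 0.396.

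To see where in the tissue these transcripts lay, spots were clustered on 2000 variable genes that excluded the members and all marker lists, which gave 11 regions, each called by its leading named gene. A region stands for no cell type, and its level against the rest of its library is a description. Genes were not centred within libraries here, and each of the 11 regions lay mostly in libraries 1 and 2 or mostly in libraries 3 and 4. The Tpbgl region, for example, had 341, 128, 7 and 6 spots in libraries 1 to 4. Like tissue may thus carry different region names, and whether a region's absence from a library means absence of its tissue was not tested. The Ces1a region, with 166 spots in library 3 and 104 in library 4 and none in libraries 1 and 2, held the highest level of 8 of the 9 members in library 3. Its other leading genes include the macrophage elastase Mmp12, the integrin Itgax and the olfactory mucosa genes Scgb1c1 and Gpx6.

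In the Ces1a region C1qa reached 516 and 495 CPM, C1qb 622 and 591 CPM and C1qc 447 and 422 CPM in libraries 3 and 4. C3 reached 452 and 380 CPM there, against 68.9 and 50.1 CPM in the rest of those libraries, a ratio of 6.57 (5.93 to 7.27) and 7.57 (6.60 to 8.69). The C1q genes together were 3.99 and 4.14 times the rest, Serping1 5.46 and 6.90 times, and C4b 2.29 and 2.44 times. C3ar1 was at 47.3 and 34.7 CPM and C5ar1 at 16.7 and 16.4 CPM. Over 2-fold there were 8 of 9 members in library 3, where C2 was the exception at 1.79 (1.297 to 2.45), against 10.9% of genes with at least 50 UMIs in the library. In library 4, 8 of 8 members with that many UMIs were over 2-fold, against 10.7% of genes, C5ar1 being left out.

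The region took 13.8% and 11.5% of the UMIs of libraries 3 and 4, but 51.3% and 49.6% of their C3, 39.1% and 35.0% of their C1q, 46.7% and 47.3% of their Serping1 and 26.9% and 24.1% of their C4b. C4b was thus the least confined of these transcripts to it. The same spots carried the lesion phagocyte list at 7496 CPM, reactive glia at 6338 CPM, olfactory ensheathing glia at 7809 CPM, nasal mucosa at 3223 CPM and red blood cells at 3247 CPM, and the part of each in the members' levels was not tested.

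C3 and C4b parted in the Crabp1 region, whose leading genes include the neuroblast genes Sox11 and Dcx and the myelin genes Mbp and Mobp. C4b stood at 339 and 297 CPM there in libraries 3 and 4, 1.64 (1.48 to 1.81) and 1.71 (1.47 to 1.98) times the rest of each library. C3 was at 23.5 and 9.81 CPM, 0.174 and 0.104 times the rest, and Serping1 at 15.2 and 14.0 CPM, 0.127 and 0.146 times the rest. Per C1q UMI this region held 0.992 and 1.21 C4b UMIs, against 0.273 and 0.254 in the Ces1a region. The oligodendrocyte list lay at 5289 CPM in the Crabp1 region and 1750 CPM in the Ces1a region. It was highest at 6732 CPM in the Lmo3 region, where C4b was below the rest of libraries 3 and 4, at 0.693 (0.487 to 0.958) and 0.781 (0.653 to 0.927) times.

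The Fst region, whose other leading genes over all other spots include the lipocalin Lcn2, Car9, Gfap, C3 itself and the mitral and tufted cell gene Tbx21, and which was present only in libraries 3 and 4, was second for C3, at 154 and 123 CPM, with C4b at 248 and 253 CPM. It held 0.315 (0.286 to 0.347) and 0.230 (0.203 to 0.259) C3 UMIs per C1q UMI, compared with 0.285 (0.263 to 0.309) and 0.2515 (0.225 to 0.280) in the Ces1a region. The intervals of the 2 regions overlapped in both libraries. Against the rest of its own library, no member was over 2-fold in the Fst region, against 1.82% and 1.98% of genes in libraries 3 and 4.

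C2 and Serping1 were high in the Osr1 region, led by Fmod and Ptgds and carrying the leptomeningeal list at 37790 CPM. C2 was at 55.2 and 32.3 CPM there in libraries 3 and 4, 4.27 (3.26 to 5.57) and 2.57 (1.71 to 3.78) times the rest, and the region held 41.4% and 25.4% of the C2 UMIs of those libraries. Serping1 was at 221 and 130 CPM, 2.49 and 1.54 times the rest. Members over 2-fold numbered 2 of 9 and 1 of 8, against 5.05% and 2.8% of genes. C3 was below the rest there, at 0.549 and 0.479 times. The place of C2 depended on the clustering, since at resolution 0.4 its highest region was one led by Mmp12, and with genes centred within each library one led by Ces1a.

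In libraries 1 and 2, where C3 was at the floor, the Bpifb9b region, led by genes of olfactory sensory neurons such as Omp and Stoml3, was the highest of the regions with at least 30 spots for all 3 C1q genes, C4b and Serping1. C4b stood at 35.0 and 42.7 CPM there, 2.87 (2.19 to 3.76) and 3.22 (2.13 to 4.85) times the rest of libraries 1 and 2. Serping1 stood at 41.6 and 52.0 CPM, 3.42 and 3.04 times the rest, and the C1q genes together at 1.70 and 1.53 times. Over 2-fold were 2 of 6 members in library 1 and 3 of 6 in library 2, the added member being C2, against 6.06% and 3.96% of genes. This region also carried the leptomeningeal list at 8426 CPM. The Osr1 region, with 22 and 19 spots in libraries 1 and 2, fell under the limit of 30 spots. It held 1.24% and 2.19% of the UMIs of those libraries, but 12.1% and 22.8% of their Serping1. Its shares of their C4b were 5.70% and 9.90%, of their C2 15.8% and 15.5%, and of their C1q 2.23% and 6.13%. Among regions with at least 30 spots in libraries 3 and 4, the Trbc2 region, with Neurod6 among its leading genes, was the lowest for C1qa and C4b. C1qa was at 70.6 and 57.5 CPM there, C4b at 29.4 and 22.9 CPM and C3 at 8.23 and 10.5 CPM. Under the same limit, C3 was lowest in the Lgr6 region of library 3 at 5.63 CPM and the Lmo3 region of library 4 at 4.09 CPM. Both of these C3 values rest on very few UMIs, the former on 0.0654% of the C3 UMIs of library 3.

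**Figure D3:**
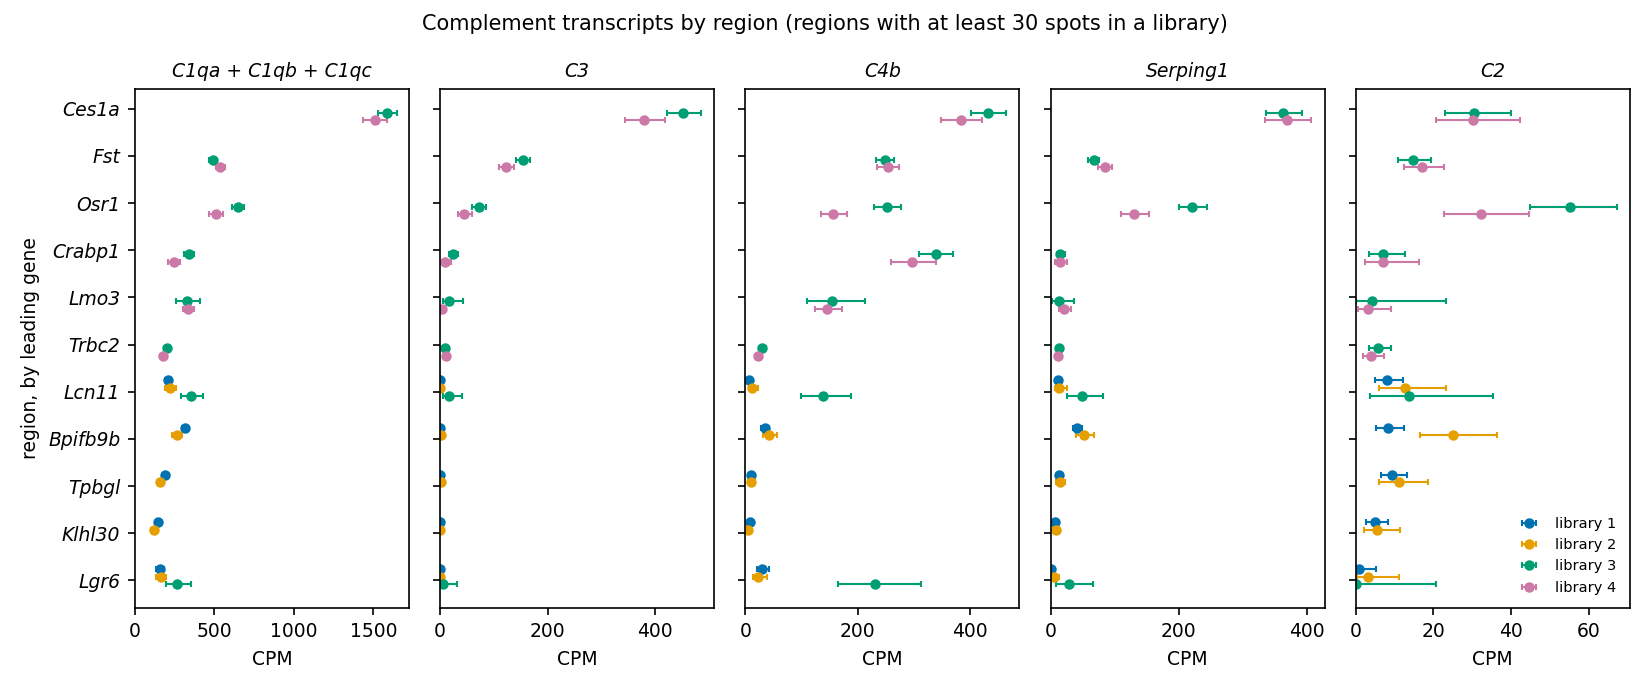
Level (horizontal axes, CPM) of the summed C1q genes, C3, C4b, Serping1 and C2 in each region (vertical axis, by leading gene) with at least 30 spots in a library, coloured by library, with exact 95% counting intervals. C3 peaks at 452 CPM in the Ces1a region, C2 at 55.2 CPM in the Osr1 region under this clustering, and C4b stays high in the Crabp1 region.

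Spot by spot, C3 had its highest rank correlation with the reactive glia list among the 14 marker lists. It had a weak one with the homeostatic microglia list, which includes Sall1. Spearman's rho over thinned spots between C3 and the reactive glia list was 0.46 in library 3 (1254 spots) and 0.42 in library 4 (923 spots), between C3 and lesion phagocytes 0.38 and 0.36, and between C3 and homeostatic microglia 0.15 and 0.12. The C1q genes together had 0.44 and 0.42 with lesion phagocytes and 0.43 and 0.43 with reactive glia in libraries 3 and 4, but 0.02 and 0.02 with lesion phagocytes in libraries 1 and 2. Without thinning, which keeps more UMIs per spot, the values for C1q and lesion phagocytes were 0.20, 0.16, 0.61 and 0.59 in libraries 1 to 4. Those for C3 in libraries 3 and 4 were then 0.65 and 0.60 with reactive glia, 0.60 and 0.57 with lesion phagocytes and 0.26 and 0.24 with homeostatic microglia. C4b in thinned spots reached 0.28 and 0.33 with reactive glia and 0.17 and 0.17 with oligodendrocytes, a weak relation, and without thinning 0.48 and 0.54, and 0.26 and 0.29. Both lists of a pair share the spot's UMIs and tissue, and the lists differ in abundance, so these are descriptions of the spots.

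Spots were also ranked by each list and cut into 5 equal groups. Along the reactive glia list, C3 was at 11.95, 9.96, 21.9, 104 and 420 CPM in library 3, lowest to highest group, and at 8.11, 16.2, 0, 59.5 and 318 CPM in library 4. C4b moved more gradually, at 118, 175, 213, 273 and 446 CPM in library 3. Along the homeostatic microglia list, the C1q genes together were at 390, 364, 580, 522 and 988 CPM in library 3. In library 1 the same list gave 231, 178, 222, 257 and 275 CPM, a much smaller spread. This list includes Sall1, which made up more of it in library 1. The list summed to 338 CPM with Sall1 and 227 CPM without in library 1, against 378 and 319 CPM in library 3. The part of Sall1 in the smaller spread was not tested.

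**Figure D4:**
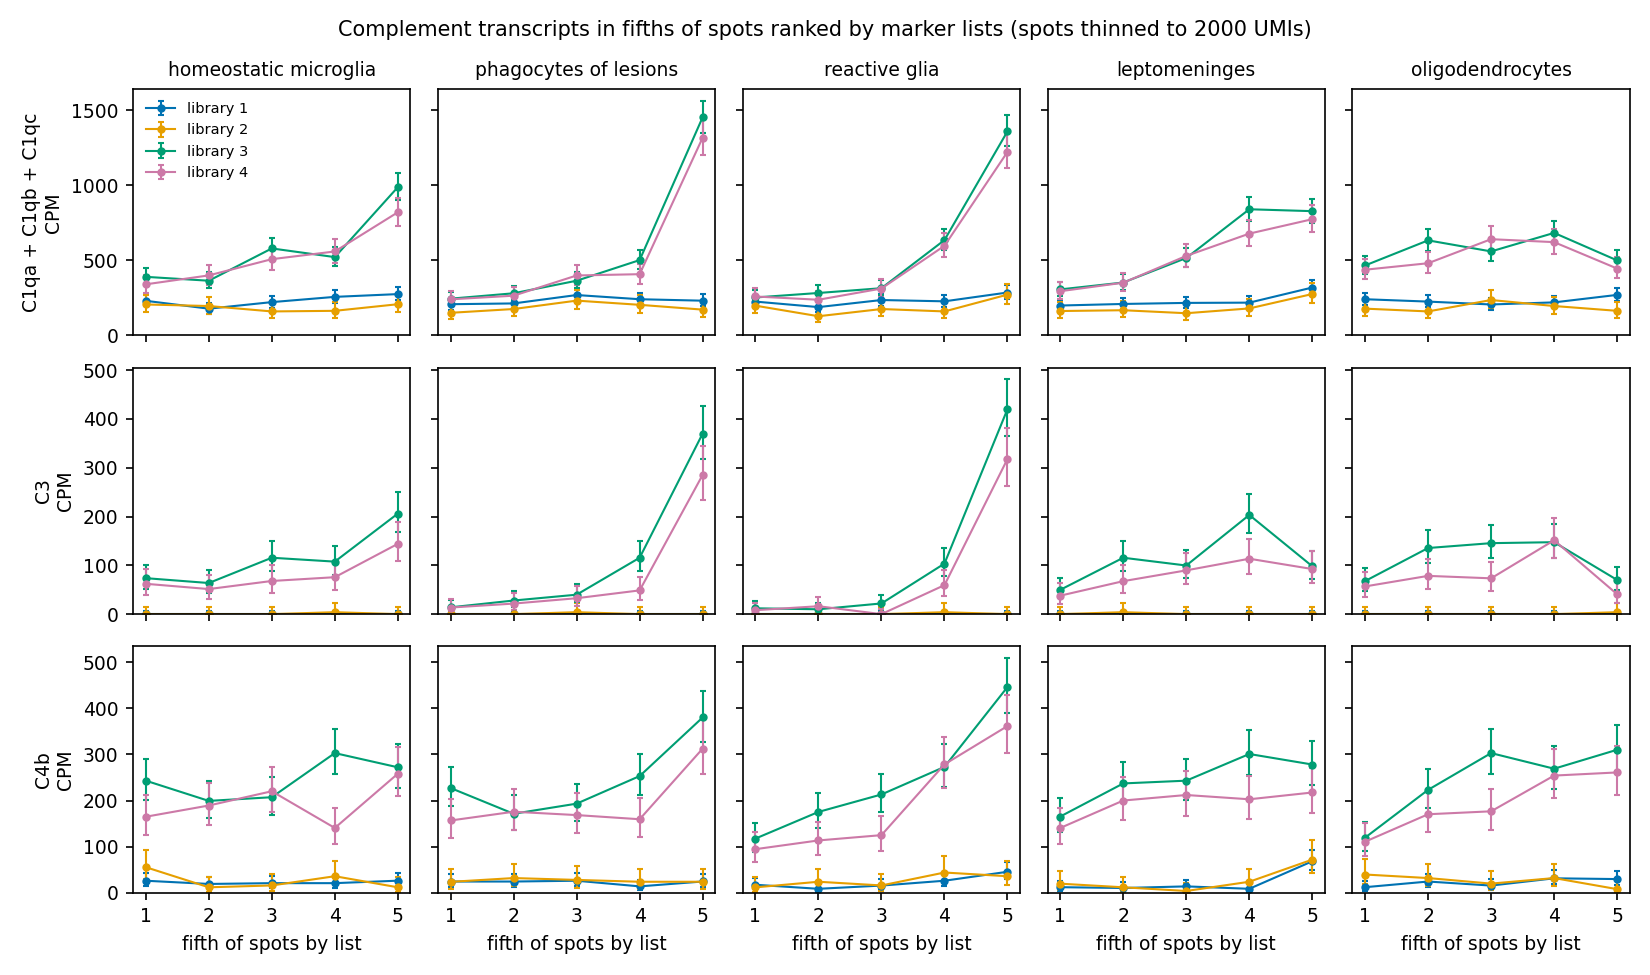
Level (vertical axes, CPM) of the summed C1q genes, C3 and C4b in 5 equal groups of spots ranked from low (1) to high (5) by each of 5 marker lists, in spots thinned to 2000 UMIs, coloured by library, with exact 95% counting intervals. C3 reaches 420 CPM in the highest reactive glia group of library 3, and C4b is at 310 CPM in the highest and 119.5 CPM in the lowest oligodendrocyte group of that library.

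With the phagocyte and reactive lists each split at the median rank, C3 was low wherever the reactive list was low. In library 3 it was at 271 CPM where both lists were high, 70.6 CPM where only reactive glia were high, 14.1 CPM where only phagocytes were high and 11.1 CPM where neither was. In library 4 the values were 209, 35.3, 12.8 and 8.20 CPM. C1q in library 3 was at 1057, 395, 347 and 236 CPM in the same order, so that either list alone went with similar levels. C4b in library 3 was at 343, 297, 158 and 160 CPM, near its top wherever reactive glia were high. In library 4, C1q was at 998, 407, 330 and 211 CPM in the same order. C4b there was at 306, 253, 67.3 (41.7 to 103) and 118 (92.4 to 149) CPM. It was thus lowest where only phagocytes were high, though that interval overlapped the one where neither list was.

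Spots with a C3 UMI differed from those without in the same direction. They held 1146 and 1155 CPM of C1q in libraries 3 and 4, against 471 and 440 CPM in spots without, a ratio of 2.43 (2.17 to 2.73) and 2.62 (2.26 to 3.03). Serping1 was 3.38 and 3.23 times as high in spots with C3, and C4b 1.64 (1.34 to 1.99) and 2.44 (1.90 to 3.11) times. Reactive glia genes were 4.24 and 3.70 times as high and neuron genes 0.611 and 0.614 times. By the share of UMIs in the top spots, C3 was also the most focal of the 6 members with at least 100 UMIs in thinned spots. The 5% of thinned spots richest in C3 held 58.5% and 57.4% of its UMIs in libraries 3 and 4. This share runs higher for genes of lower count, and C3 had the fewest UMIs of the 6 in library 4, at 148. By variance over mean, C3 led in library 3 at 2.01, but in library 4 it was at 1.68, below C1qb at 1.75. Serping1, with a like number of UMIs, had 50.2% and 48.0% in its top 5% of spots. Between members of higher count, C1qb had 36.2% and 39.1% and C4b 28.7% and 32.6%.

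The genes whose log-scaled levels over spots were most like C3 in libraries 3 and 4 were Lcn2, with a mean Pearson r of 0.73, Serpina3n with 0.63, Vim with 0.63, Cebpd with 0.60 and Car9 with 0.58. For C1qa they were Apoe with 0.44, Apod with 0.38, Lyz2 with 0.37, B2m with 0.36 and Fabp7 with 0.36 over the 4 libraries. Apoe also led for C1qb (0.35) and C1qc (0.36), Apod for C4b (0.31), Dcn for Serping1 (0.52) and Itih2 for C2 (0.26, 3 libraries). For C3ar1, Lyz2 led in library 3 alone (0.36), and C5ar1 had too few UMIs.

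Among the other 48 genes of the complement list, 22 had at least 100 UMIs and 11 of these were over 2-fold between libraries with an interval above 1, against 14.6% of the 13418 genes with that many UMIs. The C1q-associated protease genes were among them. C1ra had 9, 1, 164 and 106 UMIs in libraries 1 to 4, and C1s1 had 1, 0, 164 and 106. In library 3, 125 spots had C1ra, 137 had C1s1 and 35 had both, and the Ces1a region held 45.7% of the C1ra and 48.2% of the C1s1 UMIs. C1s1 in library 3 was at least 22.8-fold higher than in library 2, with the floor of 3 UMIs set for that library, and the exact interval of the ratio began at 18.3.

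Of the alternative pathway, factor B (Cfb) had 8, 5, 59 and 29 UMIs, and properdin (Cfp) was near level at 19.1, 25.5, 24.3 and 21.6 CPM. The terminal components C6, C7, C8a, C8b, C8g and C9 had under 100 UMIs each, and 3 of them had none. Among regulators, clusterin (Clu) stood at 594, 532, 1373 and 1348 CPM. Cd55 and Csmd1 were also over 2-fold, whereas Cd46, Cr1l, Cd59a, Vtn, Csmd2, Csmd3 and Susd4 were not. Of the integrin receptors for C3 fragments, the shared chain Itgb2 stood at 3.01, 2.49, 16.0 and 12.7 CPM and Itgax had 3, 0, 198 and 102 UMIs, whereas Itgam was not over 2-fold at 1.64 (1.17 to 2.30). The lectin-pathway ficolin Fcna and the collectin Colec12 were over 2-fold and Masp1 was not. The median ratio of the 22 genes was 2.14, beside 1.301 for all genes with at least 100 UMIs, and Itgax and Clu are also in the phagocyte and astrocyte marker lists.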

How the data were processed

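Visium RNA was counted as whole-number UMI counts per gene and spot and pooled over capture areas before the authors deposited the matrix; the file headers name Space Ranger 1.3.1. GRCm39 is named in the submitters' processing notes, although the gene set resembles that of an older build; the sources used here do not give the annotation, read filters or strand use. The promoter table is of GRCm38.p6.

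Libraries were taken from the number at the end of each barcode, which matches no label, so the planned comparison of conditions was not run and no library counts as a replicate. Spots under 500 UMIs (97, with 0.0680% of UMIs) were left out. UMIs were summed per library or region in Python 3.11.15, and levels have exact Poisson, ratios exact conditional binomial and shares Clopper-Pearson intervals. A sum of 3 UMIs equals 0.225, 0.574, 0.239 and 0.315 CPM in libraries 1 to 4. A gene counted as over 2-fold needed 500 UMIs in all and 3 per library; in regions, 50 UMIs in the library, and in the complement list, 100 UMIs in all. Thinning to 2000 UMIs per spot left out 233, 89, 42 and 20 spots of libraries 1 to 4, and ties in ranks were broken at random. Regions came from 2000 variable genes, 30 principal components, 15 neighbours and Leiden clustering (leidenalg 0.10.2) at resolution 0.8, without members, marker lists, mitochondrial, ribosomal protein and haemoglobin genes. A region is called by the gene with the largest fold over other spots among genes with 200 UMIs in it, passing over unnamed gene models, a choice made after values were seen.

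Named genes are the members, the other genes of a complement list, marker list genes, the 5 genes most like each member over spots in libraries with 100 or more of its UMIs, and the leading genes of regions, of which some are not reported here. Members, lists and thresholds were chosen with earlier results of these data known. Alternatives covered spot filters, totals, thresholds, thinning, clustering and each library left out; edgeR 4.0.16 served only for TMM library sizes. The calculations were tested on simulated data.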

Additional observations from a re-analysis of the deposited data

How the results depend on the processing

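No paired analysis was possible because the libraries match no sample label and carry no replicate numbers. The count of 7 members over 2-fold was 7 at 1.5-fold, a looser rule that could not lower it, against 19.6% of genes. It was 7 without mitochondrial genes (7.9% of genes) and with TMM library sizes (7.78%), and 8 of 8 with a minimum of 200 UMIs (10.9%). With each library left out in turn it was 6 of 6 tested, against between 5.61% and 6.88% of genes. C2, with 564 UMIs in all, fell under the minimum of 500 UMIs each time and was not tested. At 4-fold, a stricter rule by construction, the count was 3 of 7, against 1.61% of genes. With regions weighted alike, C3 per C1q UMI in library 3 was 0.178 and C4b per C1q UMI 0.432. Without Sall1, chosen as an alternative after seeing the data, C1q per microglia list UMI was 0.938, 0.845, 1.76 and 1.59 in libraries 1 to 4. The log2 ratio of the highest region to the rest was 1.90 for C1q with genes centred within each library, against 1.998, and for C3 2.95 at resolution 1.2 and 3.78 with centring, against 2.72; the cause was not tested. That of Serping1 was 3.13 at resolution 0.4 and 1.90 with centring, against 2.45, and that of C2 1.98 at resolution 0.4, against 1.36. Highest here means the largest ratio to the rest, taken in the library where a region's ratio was lowest, not the largest CPM. The highest region for C2 became one led by Mmp12 at resolution 0.4 and by Ces1a with centring. That for C4b, led by Bpifb9b, became one led by Mmp12 at resolution 0.4 and with centring and by Agt at resolution 1.2. By CPM, C4b was highest in the Ces1a region, at 432 and 383 CPM in libraries 3 and 4. Because the highest region was picked anew under each clustering, these ratios could hardly change direction, and that none did is no check. The factor of C4b between libraries was 10.2 as a mean over spots, the only 1 of 45 alternative member ratios to move beyond its interval. Thinning to 4000 UMIs moved 30 of 36 shares of spots with a UMI. Without thinning, 140 of 162 rank correlations of C1q, C3, C4b and Serping1 moved beyond an approximate 95% interval over spots. Depth limits C3ar1 and C5ar1 and every value of C3 in libraries 1 and 2.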

Other observations

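The unmapped libraries fell apart for most members but not for C2. C4b at 17.1, 19.3, 222 and 183 CPM and Serping1 at 18.6, 24.3, 108 and 89.9 CPM in libraries 1 to 4 each left a gap between the pair of low and the pair of high values that counting error does not bridge. C2 was at 8.57 (7.07 to 10.3), 13.6 (10.6 to 17.1), 18.9 (16.6 to 21.5) and 14.9 (12.5 to 17.6) CPM, and the intervals of libraries 2, 3 and 4 overlapped in part. The richest single spot held 1, 1, 34 and 26 UMIs of C3, 7, 5, 41 and 22 of C1qa, and 4, 3, 18 and 21 of C4b, without correction for the depth of the spot. These values are descriptions, and no library is tied to a mouse.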
